A study of Mus musculus with 20 samples.

Results

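The transcripts described here encode 10 proteins of the endoplasmic reticulum (ER) folding machinery and of the unfolded protein response. They were chosen by gene symbol and are all 10 rows of the expression table with these symbols, of 32285 genes measured. The luminal chaperones are Hspa5, Hsp90b1, Calr and Pdia4. Dnajb9 and Sdf2l1 are partners of the chaperone Hspa5, Herpud1 and Edem1 serve ER-associated degradation, and Xbp1 and Atf6 are transcription factors of the response. All 10 passed the filter on low values, at least 1 TPM (transcript abundance scaled for length and to a fixed total) in at least 5 libraries, which 12350 genes passed.

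Transcripts were measured by RNA-seq in immortalised primary murine cancer-associated fibroblasts (CAFs), the fibroblasts of the tumour stroma, in a study of macropinocytosis under metabolic stress in pancreatic cancer. There were 4 groups of 5 libraries, all kept for 32 h, and the sample titles name DMSO for every group but the one with EIPA. The first had 0.2 mM glutamine with 25 uM EIPA, an amiloride analogue that blocks sodium-proton exchange and is used to inhibit macropinocytosis, and the second had 0.2 mM glutamine with the DMSO vehicle. The third had 4 mM glutamine with the cytokine IL-1a at 25 pg/mL, and the fourth had 4 mM glutamine with vehicle. Sample titles give EIPA in uM and the treatment protocol gives the same figure in mM, and the titles were followed. The labels name neither the number of lines nor separate cultures behind the 5 replicates, so p-values measure the spread between these libraries, which may be technical. In cultures of this kind, fewer cells of a type and less RNA per cell cannot be told apart.

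Secreted and membrane proteins fold in the ER with the help of abundant chaperones, of lectins that read their glycans and of oxidoreductases that form disulfide bonds. When unfolded proteins accumulate, the sensors IRE1, ATF6 and PERK are activated. IRE1 splices the mRNA of Xbp1, the ATF6 protein is cleaved into a transcription factor, and PERK phosphorylates eIF2alpha, which limits translation and favours ATF4 and its target CHOP. XBP1 and ATF6 raise the transcription of chaperones and degradation factors. Fibroblasts that secrete collagen depend on this machinery. The Xbp1 value is that of the whole gene, and its spliced and unspliced forms were not separated.

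Every library has the same TPM total, so depth is unknown and the number of libraries limits the precision. Between 11749 and 12045 genes reached 1 TPM per library. Fibroblast transcripts were abundant, with mean levels over the 20 libraries of 1830 TPM for Col1a1, 1170 TPM for Col1a2 and 2420 TPM for Vim, although Fap (0.0505 TPM) and Lum (0.1 TPM) were near 0. Of the leukocyte markers, Adgre1 and Cd3e were listed at 0 in every library and Ptprc was near 0 (0.0005 TPM), while Cd68 averaged 3.64 TPM. Epcam (0.103 TPM), Krt8 (0.205 TPM) and Cdh1 (0.978 TPM) were low among the epithelial markers, but Krt19 averaged 176 TPM and Krt18 10.3 TPM. Of the endothelial markers, Pecam1 averaged 0.0775 TPM, Cdh5 0.008 TPM and Kdr 4.95 TPM. The Schwann cell marker Sox10 was listed at 0 in every library. All 3 mesothelial markers were expressed, and their summed level was 65 to 147 TPM with EIPA, 109 to 158 TPM in 0.2 mM vehicle, 184 to 301 TPM with IL-1a and 217 to 353 TPM in 4 mM vehicle. The 5 epithelial markers summed to 88.5 to 120 TPM with EIPA, 133 to 206 TPM in 0.2 mM vehicle, 167 to 362 TPM with IL-1a and 186 to 397 TPM in 4 mM vehicle. The 10 fibroblast markers summed to 2120 to 2390 TPM with EIPA, 3300 to 3890 TPM in 0.2 mM vehicle, 7250 to 8940 TPM with IL-1a and 8460 to 9250 TPM in 4 mM vehicle. The part of these marker lists in the results below was not tested. IL-1a replicates 1 and 5 and 4 mM vehicle replicate 5 stood apart from the other 7 libraries at 4 mM on the third principal component (4.07% of the variance), and leaving out these 3 changed no call of the 10 transcripts in the 3 comparisons.

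The 4 luminal chaperones were among the more abundant transcripts of these cells. By mean level over the 20 libraries, Calr (941 TPM) ranked 147, Hspa5 (879 TPM) 158, Hsp90b1 (646 TPM) 207 and Pdia4 (175 TPM) 888 of the 32285 genes. Herpud1 averaged 118 TPM and Xbp1 73.2 TPM. Atf6, Dnajb9, Sdf2l1 and Edem1 lay close together, between 36.9 and 43.3 TPM. TPM is scaled for transcript length, so these levels can be set side by side. Dnajb9 varied most over the libraries, its highest level being 4.69 times its lowest, and Edem1 least, at 1.35 times. The sum of the 10 transcripts took 0.194% to 0.248% of all TPM with EIPA, 0.243% to 0.286% in 0.2 mM vehicle, 0.287% to 0.381% with IL-1a and 0.343% to 0.390% in 4 mM vehicle.

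**Figure D1:**
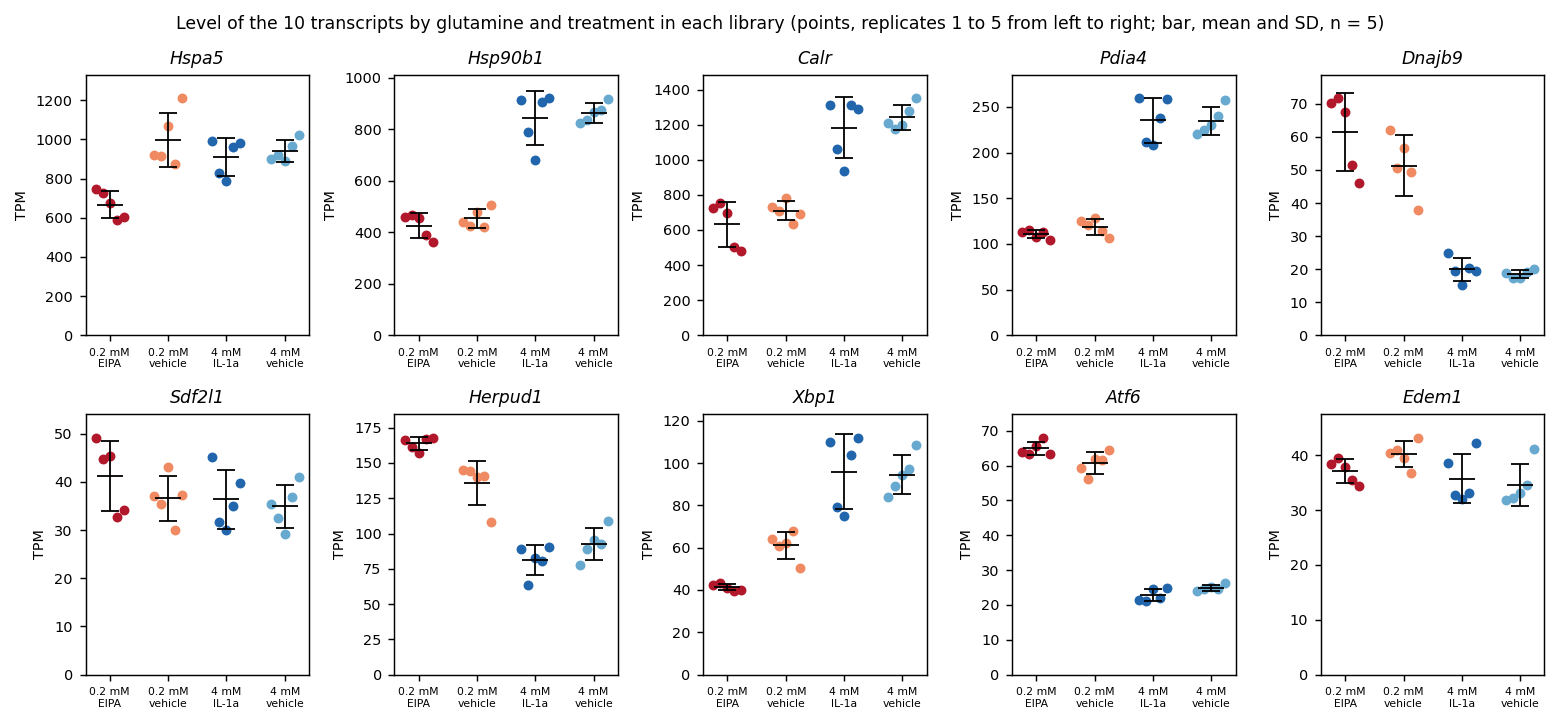
Level of each transcript in TPM (vertical axis) in the 20 libraries, with a panel per gene, a point per library and the mean and SD of the 5 libraries of a group as bars. Hsp90b1, Calr, Pdia4 and Xbp1 lie lower at 0.2 mM than at 4 mM glutamine, Dnajb9 and Atf6 lie higher, and Hspa5 is lowest with EIPA (588 to 746 TPM).

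Comparing 0.2 mM with 4 mM glutamine in vehicle-treated cells asks how the machinery differed under glutamine limitation. The chaperones Hsp90b1, Calr and Pdia4 and the transcription factor Xbp1 fell, while Dnajb9, Atf6, Herpud1 and Edem1 rose, and Hspa5 and Sdf2l1 did not pass the test. Calls were made with limma on log2(TPM + 1), at a Benjamini-Hochberg adjusted p below 0.05 over the 12350 genes. Of the 10 transcripts, 8 were called, 4 higher and 4 lower, where 73.3% of all tested genes were called (45.4% higher and 27.9% lower), so the share called is close to the background. The libraries of the groups did not overlap for 2 transcripts that were higher and 4 that were lower, where this held for 59.9% of all tested genes. The median of the 10 log2 fold changes was 0.07, against 0.14 for all tested genes. Because the median gene lay 0.14 higher at 0.2 mM, log2 fold changes relative to it are also given. On that scale 35.3% of genes were called higher and 35.8% lower, and 3 of the 10 transcripts were higher and 4 lower, the call of Edem1 being lost. The fibroblast and mesothelial marker sums were also lower at 0.2 mM, as given above. Upk3b (36.7 TPM at 0.2 mM, 131 TPM at 4 mM) and Lrrn4 (1.89 and 46 TPM) were lower, while Msln was at 85.4 and 93 TPM. The 3 endothelial markers summed to 6.12 to 10.2 TPM at 0.2 mM and 2.57 to 3.21 TPM at 4 mM, nearly all of it Kdr (6.93 and 2.86 TPM).

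Hsp90b1, the ER member of the HSP90 family (GRP94), had 440.0, 426, 478, 421 and 505 TPM in the 5 libraries at 0.2 mM, against 822, 836, 865, 876 and 918 TPM at 4 mM. Every library at 0.2 mM was below every library at 4 mM. The mean was 0.526 of that at 4 mM, and its log2 fold change was -0.93 ± 0.08 (± SE; limma, adjusted p = 2.5e-09), or -1.06 relative to the median gene. Calr, the lectin chaperone calreticulin that binds monoglucosylated glycoproteins and calcium, had 731, 706, 784, 635 and 691 TPM at 0.2 mM, against 1212, 1176, 1196, 1276 and 1350.4 TPM at 4 mM. The groups again did not overlap, and the log2 fold change was -0.81 ± 0.12 (limma adjusted p = 2.2e-06). Pdia4, a protein disulfide isomerase (ERp72), had 126, 120.3, 128, 115 and 106 TPM at 0.2 mM, against 220.5, 225, 230.4, 240.1 and 258 TPM at 4 mM. Its level at 0.2 mM was 0.507 of that at 4 mM and the groups did not overlap (log2 fold change -0.98 ± 0.07, limma adjusted p = 3.3e-11).

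Hspa5, the HSP70 chaperone BiP that also keeps the 3 stress sensors inactive, did not follow the other chaperones. It had 919, 916, 1068, 876 and 1211 TPM at 0.2 mM, against 902, 921, 890.3, 965 and 1025 TPM at 4 mM. The ranges overlap, and replicates 3 and 5 at 0.2 mM were above all 5 libraries at 4 mM. Means were 998 ± 139.5 TPM at 0.2 mM and 941 ± 55.1 TPM at 4 mM (SD, n = 5 each), with a log2 fold change of 0.08 ± 0.09 (95% interval -0.11 to 0.26; limma adjusted p = 0.45). The sign depends on the scaling, at -0.06 relative to the median gene, and under quantile normalisation the transcript was called higher (0.21, limma adjusted p = 0.028). Sdf2l1, which forms a complex with BiP and its cofactor ERdj3, ranged from 30.1 to 43.1 TPM at 0.2 mM and from 29.1 to 41.0 TPM at 4 mM. Its log2 fold change was 0.06 ± 0.12 (95% interval -0.20 to 0.32; limma adjusted p = 0.65) and -0.07 relative to the median gene.

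The transcripts that rose at 0.2 mM encode a BiP partner, a sensor and degradation factors. Dnajb9, the J-protein ERdj4 that recruits BiP to unfolded proteins and to IRE1, had 62.2, 50.7, 56.6, 49.4 and 37.8 TPM at 0.2 mM, against 18.8, 17.2, 17.4, 19.1 and 19.9 TPM at 4 mM. The lowest library at 0.2 mM, replicate 5, was still above all libraries at 4 mM. The mean was 2.78 times that at 4 mM (log2 fold change 1.41 ± 0.13, limma adjusted p = 6.8e-09). Herpud1, a membrane protein that organises the HRD1 degradation complex, had 145, 144, 140.3, 141 and 108 TPM at 0.2 mM, against 77.8, 88.9, 95.5, 92.4 and 109 TPM at 4 mM. Replicate 5 at 0.2 mM and replicate 5 at 4 mM met at 108 and 109 TPM, and the remaining libraries of the groups were apart. The log2 fold change was 0.55 ± 0.09 (limma adjusted p = 2.5e-05). Edem1, which marks misfolded glycoproteins for degradation, ranged from 36.8 to 43.2 TPM at 0.2 mM and from 31.9 to 41.1 TPM at 4 mM. These ranges overlap, and the call (log2 fold change 0.21 ± 0.08, limma adjusted p = 0.018) was lost relative to the median gene, at 0.08 (limma adjusted p = 0.38).

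The transcription factors moved in opposite directions. Xbp1 had 64.0, 60.9, 62.0, 67.8 and 50.6 TPM at 0.2 mM, against 83.8, 89.2, 94.2, 97.1 and 108 TPM at 4 mM, with no overlap. Its log2 fold change was -0.62 ± 0.10 (limma adjusted p = 1.2e-05). Atf6 had 59.2, 56.3, 62.0, 61.6 and 64.6 TPM at 0.2 mM, against 23.9, 24.6, 25.1, 24.5 and 26.3 TPM at 4 mM. The highest value at 4 mM was under the lowest at 0.2 mM by more than the whole range of either group, and the mean was 2.44 times that at 4 mM (log2 fold change 1.25 ± 0.05, limma adjusted p = 3.1e-14). Relative to the median gene, Xbp1 stood at -0.76 and Atf6 at 1.12.

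**Figure D2:**
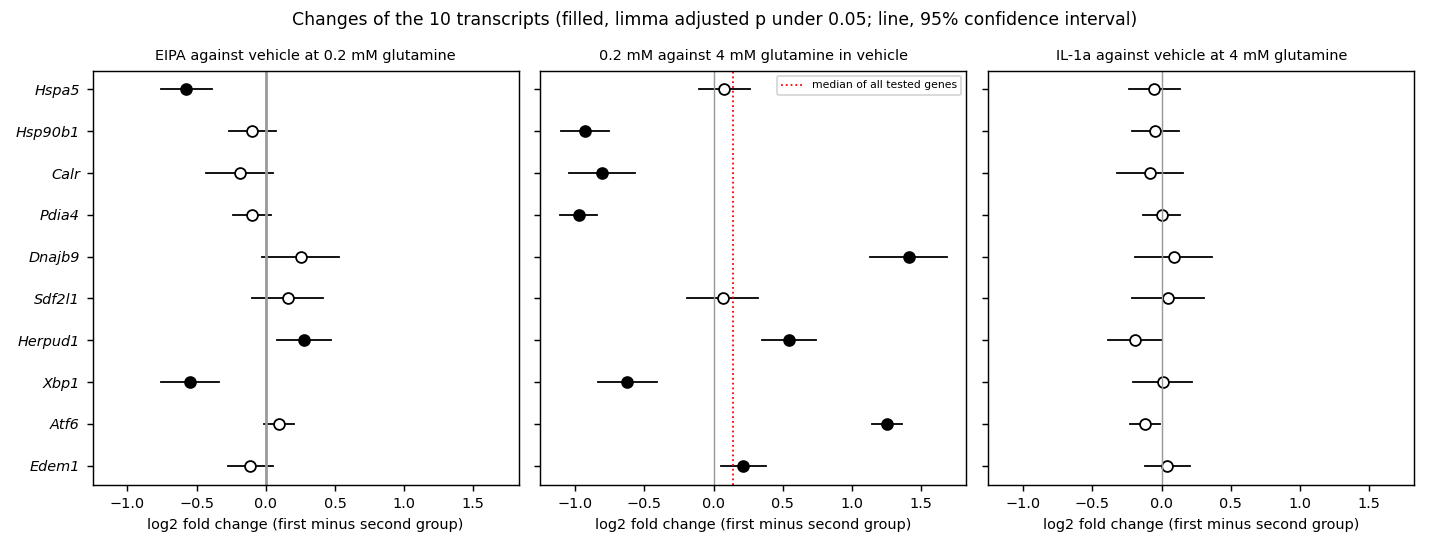
Log2 fold changes of the 10 transcripts (horizontal axis, first minus second named group) with 95% confidence intervals in the 3 comparisons, filled where called, and the median of all tested genes dotted for the glutamine comparison. Hspa5 (-0.57) and Xbp1 (-0.55) are lowest for EIPA, Pdia4 (-0.98) and Dnajb9 (1.41) are at the ends for glutamine, and no transcript is called for IL-1a.

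Comparing EIPA with vehicle at 0.2 mM glutamine asks how the machinery differed with this compound in glutamine-limited cells, and macropinocytosis itself was not measured in these data. Hspa5 and Xbp1 fell and Herpud1 rose, and the other 7 transcripts did not pass the test. These 3 calls of 10, 1 higher and 2 lower, compare with 48.5% of all tested genes (27.4% higher and 21.1% lower), so the share called is under the background. The same 3 transcripts were those whose groups did not overlap, where 34.6% of all tested genes had no overlap. The median of the 10 log2 fold changes was -0.10, against 0.02 for all tested genes. Over all tested genes, 3383 were higher and 2603 lower, but which direction held more depended on the scaling. The counts were 2912 and 2970 by median-of-ratios scaling, 2856 and 3027 by quantile normalisation, and 2781 and 3143 leaving out mitochondrially encoded genes. Mitochondrially encoded mRNAs took 5.18% to 6.78% of TPM with EIPA and 8.55% to 9.24% in vehicle, and with these genes left out of the total the calls of Hspa5 and Xbp1 held and that of Herpud1 did not (0.23, limma adjusted p = 0.051). The fibroblast and epithelial marker sums were also lower with EIPA, without overlap. Krt19 (92.4 TPM with EIPA, 150 TPM in vehicle) made up most of the epithelial sum. Krt18 went the other way (10.4 and 4.78 TPM), and Epcam, Krt8 and Cdh1 were below 1 TPM in both groups. Among the fibroblast markers Col1a1 (262 TPM with EIPA, 675 TPM in vehicle), Col1a2 (178 and 478 TPM) and Vim (1530 and 2250 TPM) were lower, while Pdpn (204 and 95.8 TPM), Pdgfra (14.8 and 6.15 TPM) and Pdgfrb (15.1 and 11.3 TPM) were higher. The 3 mural markers summed to 3.03 to 4.27 TPM with EIPA and 7.05 to 9.93 TPM in vehicle. Nearly all of it was Mcam (3.43 and 8.56 TPM), with Rgs5 (0.012 and 0.022 TPM) and Cspg4 (0.072 and 0.04 TPM) near 0. The 6 leukocyte markers summed to 7.34 to 8.70 TPM with EIPA and 2.00 to 2.67 TPM in vehicle, nearly all of it Cd68 (7.85 TPM with EIPA and 2.35 TPM in vehicle), with Ptprc at 0 in both groups. The part of these lists was not tested.

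Hspa5 had 746, 725, 676, 588 and 604 TPM with EIPA, against 919, 916, 1068, 876 and 1211 TPM in vehicle. All 5 EIPA libraries were below all vehicle libraries, as they were below the 10 libraries at 4 mM glutamine. The mean with EIPA was 668 ± 70.8 TPM and in vehicle 998 ± 139.5 TPM (SD, n = 5 each), a ratio of 0.669. The log2 fold change amounted to -0.57 ± 0.09 (limma adjusted p = 2.1e-05). In the order of group means, 0.2 mM vehicle, 4 mM vehicle and IL-1a did not differ beyond their spread from neighbour to neighbour, and EIPA stood below IL-1a (limma adjusted p = 0.00011).

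Xbp1 had 42.4, 43.5, 41.1, 39.6 and 40.1 TPM with EIPA, against 64.0, 60.9, 62.0, 67.8 and 50.6 TPM in vehicle. The EIPA libraries lay within 4 TPM of each other and below every other library of the study. The log2 fold change was -0.55 ± 0.10 (limma adjusted p = 1.6e-04), and the transcript thus took 3 levels, with EIPA below 0.2 mM vehicle and 0.2 mM vehicle below the pair of 4 mM groups. Herpud1 had 167, 161, 157, 167 and 168 TPM with EIPA, against 145, 144, 140.3, 141 and 108 TPM in vehicle. The groups did not overlap, and vehicle replicate 5 was far below the other 4. With a log2 fold change of 0.28 ± 0.09 (limma adjusted p = 0.019), this call was lost without vehicle replicate 5, at 0.20 (limma adjusted p = 0.067).

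The other luminal chaperones did not pass the test between EIPA and vehicle. Hsp90b1 had 457, 466, 455, 388 and 362 TPM with EIPA (log2 fold change -0.10 ± 0.08, 95% interval -0.27 to 0.08). Calr had 726, 753, 696, 502 and 482 TPM (log2 fold change -0.19 ± 0.12, 95% interval -0.43 to 0.05). Pdia4 had 113, 115, 108, 113 and 104 TPM (log2 fold change -0.10 ± 0.07, 95% interval -0.24 to 0.04). The EIPA and vehicle ranges of each overlap, and for Hsp90b1 and Calr the lowest libraries were EIPA replicates 4 and 5. The same replicates were lowest for Dnajb9, at 70.2, 71.7, 67.6, 51.4 and 46.1 TPM with EIPA, and for Sdf2l1, at 49.2, 44.7, 45.3, 32.7 and 34.1 TPM with EIPA.

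Left without EIPA replicates 4 and 5, a choice made after seeing the data, the comparison called Dnajb9 higher (0.46, limma adjusted p = 0.0083) and Sdf2l1 higher (0.34, limma adjusted p = 0.031). Herpud1 was then not called (0.26, limma adjusted p = 0.073), and Hsp90b1 (0.02) and Calr (0.03) changed sign. With all libraries, the log2 fold change was 0.25 ± 0.13 for Dnajb9 (limma adjusted p = 0.13) and 0.16 ± 0.12 for Sdf2l1 (limma adjusted p = 0.31). Dnajb9 was also called without EIPA replicate 5 alone (0.35, limma adjusted p = 0.035). Atf6 had 64.0, 63.3, 65.7, 68.0 and 63.4 TPM with EIPA, within or just above the vehicle range (log2 fold change 0.10 ± 0.05, 95% interval -0.01 to 0.20). Edem1 ranged from 34.4 to 39.6 TPM with EIPA and from 36.8 to 43.2 TPM in vehicle (log2 fold change -0.11 ± 0.08, 95% interval -0.27 to 0.05).

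Comparing IL-1a with vehicle at 4 mM glutamine asks what the cytokine did in cells not short of glutamine. Limma called 0 of the 10 transcripts, where 0.283% of all tested genes were called (35 genes; 0.259% higher and 0.0243% lower), and 1 of the 10 had an unadjusted p below 0.05, as had 6.02% of all tested genes. The groups overlapped for all 10, where 1.38% of all tested genes had no overlap. The 1 transcript was Atf6, with 21.5, 21.2, 24.5, 22.1 and 24.8 TPM with IL-1a, against 23.9, 24.6, 25.1, 24.5 and 26.3 TPM in vehicle. The ranges overlap (log2 fold change -0.12 ± 0.05, limma adjusted p = 0.72). Hspa5 had 992, 829, 786, 963 and 981 TPM with IL-1a (log2 fold change -0.05 ± 0.09, 95% interval -0.24 to 0.13). Xbp1 had 110.2, 79.2, 74.9, 104 and 112 TPM with IL-1a and varied more there (SD 17.7 TPM) than in vehicle (SD 9.23 TPM). IL-1a replicates 2 and 3 were the lowest of their group for Hspa5, Hsp90b1, Calr and Xbp1, with Hsp90b1 at 915, 790.3, 681, 904 and 920.3 TPM and Calr at 1313, 1063, 936, 1310.4 and 1288 TPM. The largest difference among the 10 was that of Herpud1, at 89.0, 63.3, 82.5, 80.6 and 90.4 TPM with IL-1a (log2 fold change -0.19 ± 0.09, 95% interval -0.39 to 0.0031). For the 10 transcripts the 95% intervals reached at most 0.36 upwards (Dnajb9) and -0.39 downwards (Herpud1).

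The EIPA and IL-1a responses, which share no library but were measured at different glutamine levels, were compared as a difference of differences. Of the 10 transcripts 4 were called, 2 higher and 2 lower, where 28.9% of all tested genes were called (16.3% higher and 12.6% lower). With the mitochondrially encoded genes left out, 1635 genes were higher and 1883 lower, against 2017 and 1552 before. The EIPA response was lower for Hspa5 (-0.52 ± 0.13, limma adjusted p = 0.0036) and Xbp1 (-0.55 ± 0.14, limma adjusted p = 0.0065). It was higher for Herpud1 (0.47 ± 0.13, limma adjusted p = 0.011) and Atf6 (0.22 ± 0.07, limma adjusted p = 0.031). The call of Atf6 was lost without any 1 of 7 libraries (limma adjusted p = 0.051 to 0.062) and once mitochondrial mRNAs were left out of the total (limma adjusted p = 0.084), and for neither response alone was Atf6 called.

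The pairing of Hspa5 with Hsp90b1, both luminal chaperones, differed by group. The ratio of Hspa5 to Hsp90b1 was 1.49 to 1.67 with EIPA, 2.08 to 2.40 in 0.2 mM vehicle, 1.05 to 1.16 with IL-1a and 1.03 to 1.12 in 4 mM vehicle. The pair of 4 mM groups overlap, and both 0.2 mM groups stand apart from them and from each other. The ratio of Atf6 to Xbp1 was 1.46 to 1.72 with EIPA, 0.909 to 1.28 in 0.2 mM vehicle, 0.195 to 0.327 with IL-1a and 0.243 to 0.285 in 4 mM vehicle. These ratios were chosen after their values were seen and were not tested.

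**Figure D3:**
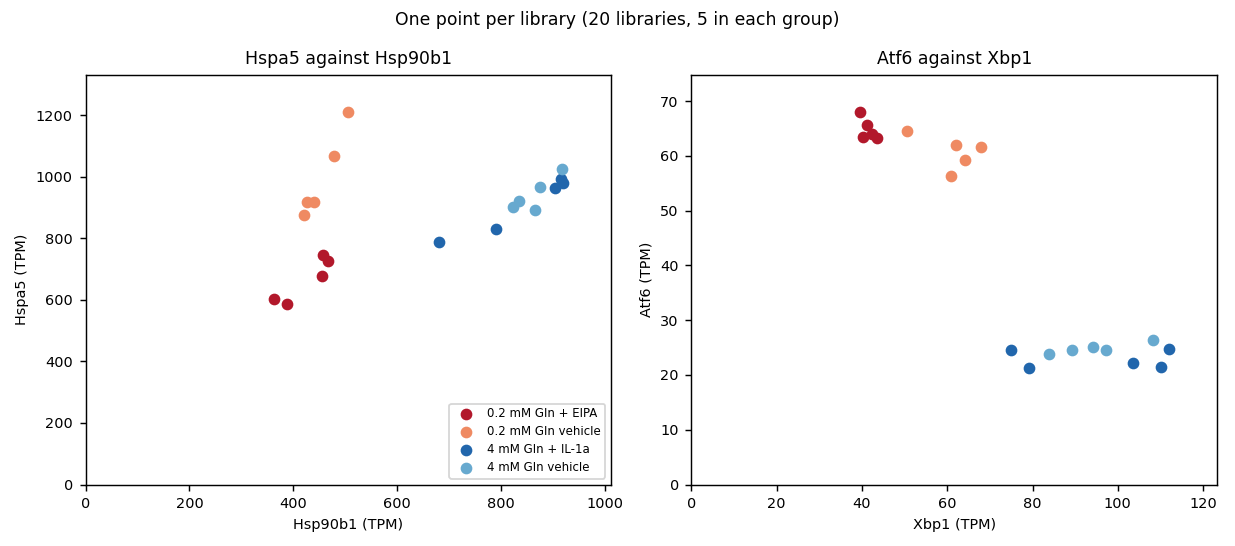
Level of Hspa5 against Hsp90b1 (left) and of Atf6 against Xbp1 (right) in TPM, with a point per library coloured by group. The EIPA libraries (588 to 746 TPM of Hspa5) lie below the 0.2 mM vehicle libraries (876 to 1211 TPM) at similar Hsp90b1, and the 4 mM groups lie together at higher Hsp90b1 and lower Atf6.

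Within the groups, the transcripts were mostly positively correlated at 4 mM glutamine and less evenly so at 0.2 mM, a difference that was not tested. Correlations of log2(TPM + 1) were taken after each group's mean was removed, and they describe libraries that share a fixed TPM total. The median Pearson r over the 45 pairs was 0.30 in the 10 libraries at 0.2 mM and 0.77 in the 10 at 4 mM. It was 0.26 over the 15 libraries left without EIPA replicates 4 and 5 and the 3 libraries that stood apart. These 3 are all at 4 mM, and the 15 pool both glutamine levels. No r was taken at 4 mM alone without the 3. At 0.2 mM 29 pairs had a positive r and 6 were over 0.8, and at 4 mM 41 pairs were positive and 16 over 0.8. Hspa5 and Hsp90b1 had r = 0.90 at 0.2 mM and 0.94 at 4 mM, and 0.86 over those 15 libraries. Hspa5 and Xbp1 had r = -0.46 at 0.2 mM and 0.96 at 4 mM, and -0.09 over those 15 libraries. For Atf6, r with the other transcripts lay between -0.62 and 0.31 at 0.2 mM and between -0.51 and 0.65 at 4 mM. No r is given over all 20 libraries for these pairs, because the libraries fall into separate clusters by glutamine level.

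**Figure D4:**
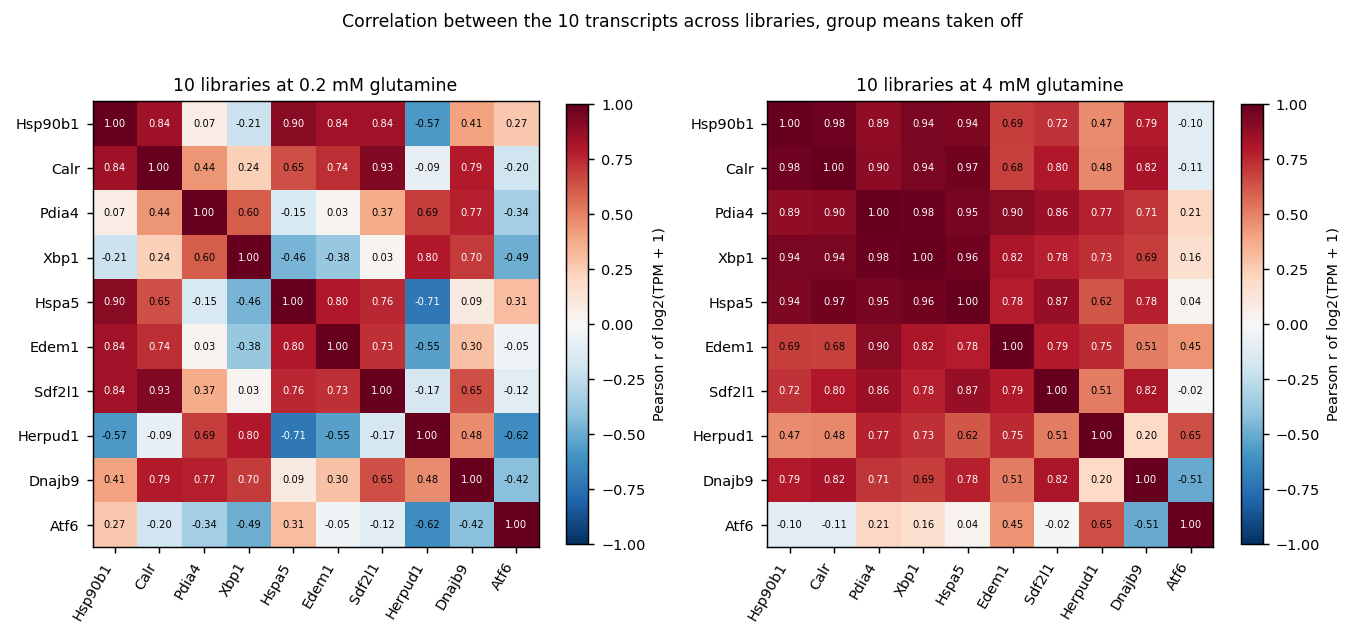
Pearson r of log2(TPM + 1) between the 10 transcripts, with each group's mean taken off, in the 10 libraries at 0.2 mM glutamine (left) and the 10 at 4 mM (right). Most squares are red at 4 mM (median r 0.77) and mixed at 0.2 mM (median r 0.30), and all 3 libraries that stood apart are at 4 mM. In the row of Atf6, r reaches 0.31 with Hspa5 at 0.2 mM and 0.65 with Herpud1 at 4 mM.

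The genes whose pattern was most like that of Hspa5 were taken from all 12350 tested genes by Pearson r. With group means removed (20 libraries), they were Rab5a (r = 0.93), Nfrkb, Tomm34, Rab1a, Arf4, Surf4, Bcl10, Serp1, Hsp90b1 and Tmem192 (0.90). Of these 10, only Hsp90b1 is on a list used here. Over the 20 libraries without that step they were Cdh24 (r = 0.93), Snrnp200, Tmed2, Ccdc167, Ska1, Kdm5c, Dnajb4, Zfp706, Gab1 and Dcakd (0.89), with 0 of 10 on a list. The lists are partial, so a gene that is on none of them may still serve the ER. The mean of Cdh24 was 4.31 TPM with EIPA, 6.88 TPM in 0.2 mM vehicle, 6.01 TPM with IL-1a and 6.06 TPM in 4 mM vehicle.

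The promoters of 4 of the 10 transcripts hold a known stress-response motif and are printed so that these motifs can be read beside the values. Hspa5, Hsp90b1 and Calr share 1 motif, and Herpud1 holds others. The ER stress response element (ERSE) was searched as CCAAT and CCACG with 9 bases between them and ERSE-II as ATTGG and CCACG with 1 base between them, together with TGACGTGG, the core of the XBP1 element, and TTGCATCA, a CHOP-ATF4 composite element, on both strands. Sequences are from RefSeq (GRCm38.p6), 250 bases before to 50 after the start of the gene, 5′ to 3′ on the gene's strand, with motifs in capitals. A window was found for 9 of the 10 genes, all but Atf6. Those shown are Hspa5 at chr2:34771840-34772139 on the plus strand, Hsp90b1 at chr10:86705395-86705694 on the minus strand, Calr at chr8:84846882-84847181 on the minus strand and Herpud1 at chr8:94386179-94386478 on the plus strand.
Hspa5: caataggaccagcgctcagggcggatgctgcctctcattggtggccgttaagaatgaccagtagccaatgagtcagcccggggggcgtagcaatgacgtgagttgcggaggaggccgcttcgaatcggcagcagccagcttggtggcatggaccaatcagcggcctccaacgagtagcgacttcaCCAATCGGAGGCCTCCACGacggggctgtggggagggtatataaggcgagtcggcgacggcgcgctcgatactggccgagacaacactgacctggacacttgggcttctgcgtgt
Hsp90b1: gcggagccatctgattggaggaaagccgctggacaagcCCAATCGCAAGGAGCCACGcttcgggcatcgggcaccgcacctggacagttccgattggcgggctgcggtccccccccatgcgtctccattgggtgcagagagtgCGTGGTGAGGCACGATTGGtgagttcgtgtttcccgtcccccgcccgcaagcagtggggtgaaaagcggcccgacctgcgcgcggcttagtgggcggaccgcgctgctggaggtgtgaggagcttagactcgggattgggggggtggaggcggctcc
Calr: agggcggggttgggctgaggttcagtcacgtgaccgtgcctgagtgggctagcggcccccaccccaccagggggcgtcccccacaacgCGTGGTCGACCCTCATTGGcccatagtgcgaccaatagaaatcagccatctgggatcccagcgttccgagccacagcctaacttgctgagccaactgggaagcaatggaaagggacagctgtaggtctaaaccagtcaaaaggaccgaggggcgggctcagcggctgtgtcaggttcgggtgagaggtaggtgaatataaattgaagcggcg
Herpud1: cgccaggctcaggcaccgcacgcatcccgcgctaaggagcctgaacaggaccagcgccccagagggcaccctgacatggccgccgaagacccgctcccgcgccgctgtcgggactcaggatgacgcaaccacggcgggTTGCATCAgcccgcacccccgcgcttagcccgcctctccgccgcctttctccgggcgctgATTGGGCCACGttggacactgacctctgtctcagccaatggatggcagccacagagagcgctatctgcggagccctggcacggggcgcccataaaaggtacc

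Counted from the start site, ERSE lay at -65 to -47 in Hspa5, at -212 to -194 and, on the opposite strand, at -107 to -89 in Hsp90b1, and on the opposite strand at -162 to -144 in Calr. Herpud1 held ERSE-II at -52 to -42 and the CHOP-ATF4 element at -112 to -105. The XBP1 core was in none of the 9 windows. Of 32851 windows of the same length in the table, 0.119% held ERSE, 0.0365% ERSE-II, 0.676% the XBP1 core and 0.895% the CHOP-ATF4 element. A match is a run of letters and no evidence of binding. The 3 genes with ERSE had log2 fold changes of 0.08 (Hspa5, not called), -0.93 (Hsp90b1) and -0.81 (Calr) between the glutamine levels. For EIPA the same genes had -0.57, -0.10 and -0.19, and only Hspa5 was called.

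Other genes of the pathway were followed as 7 lists of the ER machinery, with lists and genes named from textbook roles. They are described by counts of called genes and by the median log2 fold change, to be read beside 45.4% higher and 27.9% lower for glutamine and 27.4% higher and 21.1% lower for EIPA. Limma called 0 genes of any list for IL-1a, where 0.283% of all tested genes were called. Of their 93 tested genes 3 had an unadjusted p below 0.05 there, 2 of ER-associated degradation and 1 of the PERK arm.

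Among the 16 protein disulfide isomerases and oxidases, 5 rose and 9 fell at 0.2 mM against 4 mM glutamine (median -0.17, and 3 higher and 9 lower relative to the median gene). P4hb, the main disulfide isomerase and a subunit of prolyl 4-hydroxylase, averaged 594 ± 42.0 TPM at 0.2 mM and 996 ± 114 TPM at 4 mM (log2 fold change -0.74 ± 0.10, limma adjusted p = 6.7e-07). Pdia3 (-0.77 ± 0.07), the partner of calreticulin and calnexin, and Pdia6 (-0.68 ± 0.07) fell as well. Ero1l, the oxidase that recharges these enzymes, rose to 117 ± 10.9 TPM at 0.2 mM, against 42.5 ± 3.79 TPM at 4 mM (log2 fold change 1.44 ± 0.08, limma adjusted p = 3.6e-12). With EIPA 2 of the 16 rose and 6 fell (median 0.01), with 1 to 3 higher and 6 to 7 lower over the other settings and left-out libraries. P4hb fell again (-0.41 ± 0.10, limma adjusted p = 0.0014), while Pdia3 (0.02 ± 0.07), Pdia6 (0.13 ± 0.07) and Ero1l (0.13 ± 0.08) were not called.

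The 9 genes listed for the PERK arm were all called higher at 0.2 mM (median 0.88), and 8 were relative to the median gene. The list is named from textbook roles and includes Eif2s1, which encodes eIF2alpha itself. PERK activity was not measured, and what raised these transcripts was not tested. Atf4, which encodes the transcription factor ATF4, averaged 814 ± 53.6 TPM at 0.2 mM and 492 ± 45.2 TPM at 4 mM (log2 fold change 0.73 ± 0.08, limma adjusted p = 5.8e-08). Trib3, a pseudokinase induced by ATF4 and CHOP, averaged 313 ± 42.4 TPM at 0.2 mM and 83.2 ± 17.6 TPM at 4 mM (1.91 ± 0.16, limma adjusted p = 9.8e-10). Ddit3, which encodes CHOP, had a log2 fold change of 2.43 ± 0.10 (limma adjusted p = 6.4e-14), but its level is uncertain because a second, overlapping gene ID carries the same symbol and was listed at 0 in some libraries and at up to 4839 TPM in others. With EIPA 4 of the 9 rose and 1 fell (median 0.19). These counts were 5 and 3 without the 3 libraries that stood apart, 3 and 2 leaving out mitochondrially encoded genes, 3 and 0 without EIPA replicates 4 and 5, and 4 and 0 without 0.2 mM vehicle replicate 5. Atf4 rose (0.28 ± 0.08, limma adjusted p = 0.0067), a call lost under quantile normalisation (limma adjusted p = 0.097), and Trib3 (0.08 ± 0.16) and Ddit3 (-0.20 ± 0.10) were not called.

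Of the 22 tested genes of ER-associated degradation (of 23, Derl3 being below the filter at a mean of 0.152 TPM), 13 rose and 5 fell at 0.2 mM (median 0.18), and 6 rose and 6 fell relative to the median gene. Sel1l, the adaptor of the HRD1 complex, averaged 61.8 ± 7.03 TPM at 0.2 mM and 46.3 ± 2.29 TPM at 4 mM (0.40 ± 0.07, limma adjusted p = 2.8e-05). Its ligase Syvn1 (HRD1) fell (-0.48 ± 0.07, limma adjusted p = 2.8e-06). With EIPA 6 rose and 2 fell (median 0.02, and 5 higher and 4 lower by median-of-ratios scaling). The counts were 5 and 5 leaving out mitochondrially encoded genes, 7 and 3 without the 3 libraries that stood apart, and 4 and 1 without EIPA replicates 4 and 5. Sel1l rose further (0.45 ± 0.07, limma adjusted p = 2.4e-05), as did Edem2 (0.34 ± 0.08, limma adjusted p = 0.0019), a mannosidase-like relative of Edem1. Syvn1 (0.02 ± 0.07) and Edem3 (-0.13 ± 0.05) were not called. Between glutamine levels Edem2 stood at 0.10 ± 0.08, not called, and Edem3 was called higher (0.20 ± 0.05) but not relative to the median gene (limma adjusted p = 0.33).

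Of the 10 stress sensors and processing proteases, 4 rose and 3 fell at 0.2 mM (median 0.04, and 2 higher and 5 lower relative to the median gene). Ern1, which encodes IRE1alpha, averaged 33.5 ± 2.91 TPM at 0.2 mM and 17.4 ± 2.30 TPM at 4 mM (0.91 ± 0.09, limma adjusted p = 1.0e-08). Eif2ak3, which encodes PERK, fell (-0.41 ± 0.11, limma adjusted p = 0.0019). Mbtps2, a protease that cleaves ATF6, was called higher (0.19 ± 0.06) but not relative to the median gene (limma adjusted p = 0.47). Atf6b (-0.09 ± 0.07) and Mbtps1 (0.08 ± 0.05) were not called, and Atf6b was called lower relative to the median gene (limma adjusted p = 0.0074). With EIPA 2 rose and 5 fell (median -0.05), among them Atf6b (-0.19 ± 0.07, limma adjusted p = 0.029) and Mbtps1 (-0.21 ± 0.05, limma adjusted p = 0.0031), and 1 to 4 rose and 5 fell over the other settings, the 4 without the 3 libraries that stood apart. Ern1 (0.21 ± 0.09), Eif2ak3 (0.24 ± 0.11) and Mbtps2 (0.10 ± 0.06) were not called with EIPA, although Ern1 and Eif2ak3 were without the 3 libraries that stood apart (limma adjusted p = 0.042 and 0.016).

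Of the 12 co-chaperones and exchange factors of BiP and GRP94, 2 rose and 1 fell at 0.2 mM (median 0.05), and 0 rose and 4 fell relative to the median gene. The member that fell was Dnajb11, the J-protein ERdj3 (-0.33 ± 0.07, limma adjusted p = 3.6e-04). Hyou1, a nucleotide exchange factor, was called higher (0.28 ± 0.08, limma adjusted p = 0.0035) but not relative to the median gene (limma adjusted p = 0.12). With EIPA 2 rose and 5 fell (median -0.07), among them Dnajc3 (-0.22 ± 0.06, limma adjusted p = 0.0068) and Manf (-0.32 ± 0.10, limma adjusted p = 0.014). Without EIPA replicates 4 and 5, 2 rose and 3 fell. The call of Manf was then lost (-0.12, limma adjusted p = 0.25). Between glutamine levels Dnajc3 (0.08 ± 0.06) and Manf (0.23 ± 0.10) were not called. Creld2 was called in neither comparison (-0.05 ± 0.07 for EIPA and -0.04 ± 0.07 for glutamine), but was called lower relative to the median gene for glutamine (limma adjusted p = 0.039). Hyou1 (-0.06 ± 0.08) and Dnajb11 (0.03 ± 0.07) were not called with EIPA.

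Of the 8 lectin chaperones and glycan-processing enzymes, 2 rose and 3 fell at 0.2 mM (median -0.06, and 1 higher and 5 lower relative to the median gene), and 3 rose and 0 fell with EIPA (median -0.01). Canx, the membrane-bound relative of calreticulin, averaged 379 ± 13.8 TPM with EIPA, 325 ± 36.9 TPM in 0.2 mM vehicle and 415 ± 21.2 TPM in 4 mM vehicle. It fell at 0.2 mM (-0.36 ± 0.07, limma adjusted p = 2.2e-04) and rose with EIPA (0.22 ± 0.07, limma adjusted p = 0.017), the second call being lost with the mitochondrially encoded genes left out (limma adjusted p = 0.059). Uggt1, the folding sensor of glycoproteins, was called in neither (-0.02 ± 0.05 for EIPA and 0.08 ± 0.05 for glutamine).

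Of the 16 genes of translocation into the ER and signal peptide cleavage, 5 rose and 6 fell at 0.2 mM (median -0.02, and 4 higher and 8 lower relative to the median gene). Sec61b, a subunit of the translocation channel, fell to 152 ± 3.95 TPM at 0.2 mM, against 303 ± 35.8 TPM at 4 mM (-0.98 ± 0.08, limma adjusted p = 1.3e-09). Spcs3, of the signal peptidase, fell as well (-0.42 ± 0.06, limma adjusted p = 3.1e-06). With EIPA 0 rose and 5 fell (median -0.14), or 8 fell by median-of-ratios scaling, and 1 rose and 3 fell without EIPA replicates 4 and 5. Sec61b (-0.01 ± 0.08), Spcs3 (-0.04 ± 0.06) and Ssr3 (-0.14 ± 0.06), of the translocon-associated complex, were not called there, while Ssr3 was called lower relative to the median gene (limma adjusted p = 0.036). Between glutamine levels Ssr3 stood at -0.07 ± 0.06, not called, and was called lower relative to the median gene (limma adjusted p = 0.0058).

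**Figure D5:**
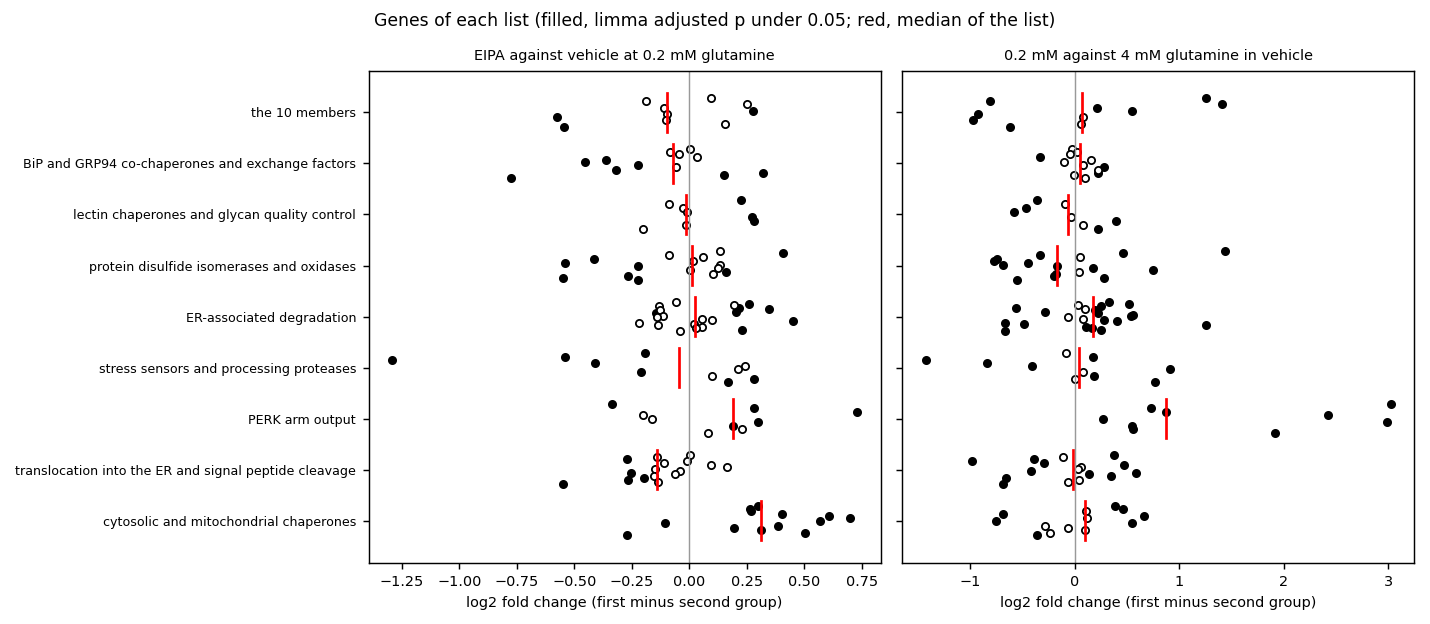
Log2 fold changes (horizontal axis, first minus second named group) of the tested genes of each list for EIPA (left) and glutamine (right), filled where called, with the list's median in red. The genes listed for the PERK arm lie to the right of 0 for glutamine (median 0.88), and the 10 transcripts lie on both sides. The cytosolic and mitochondrial chaperones lie mostly to the right for EIPA (median 0.31).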

How the data were processed

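RNA from the 20 libraries, 5 in each of 4 groups, was extracted with a PureLink kit, selected for polyadenylated RNA, made into libraries with a Watchmaker kit and read from both ends on an AVITI, per the labels' protocols. The authors deposited TPM, a length-scaled abundance with a fixed total per library, for 32285 genes. RSEM and the build mm10 are named, without versions, in the submitters' processing notes, and the aligner and annotation were not given in the sources at hand. TPM keeps no depth, so no count test or counting interval was possible.

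Log2(TPM + 1) of the 12350 genes that reached 1 TPM in 5 or more libraries was fitted with limma 3.58.1 in R 4.3.3 in 1 model of the 4 groups with an intensity trend, with Benjamini-Hochberg adjustment over all of them. The pseudocount of 1 TPM makes fold changes of low genes smaller. The fit was tested on simulated data with independent libraries and few changed genes. These data have many changed genes, so that test does not show how the fit behaves here. Errors are SD for TPM and SE for log2 fold changes (n = 5 per group). A gene is said to rise or fall only where called.

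The 10 transcripts, the lists and the genes named from them were chosen with earlier results of these data known. Genes named were the 10, 31 genes marked in the lists, and the 10 genes most like Hspa5 by each of 2 measures. Sequences and motif counts use the RefSeq promoter table (GRCm38.p6). Replicate numbers were not taken as pairs. Alternatives were a pseudocount of 0.1 TPM, no filter, a mean of at least 5 TPM, other scalings, leaving out mitochondrially encoded genes or libraries, and a replicate block.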

Additional observations from a re-analysis of the deposited data

Results flagged for a closer look

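In groups of 5 libraries, 164 in all over the transcripts described, 9 had a highest or lowest library far from the rest by Dixon's criterion (0.71), which chance meets in about 5% of groups. All 9 lie in libraries with replicate number 5, from 3 of the groups.

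With EIPA, replicate 5 was lowest for Hspa9, a mitochondrial HSP70 (760.8 TPM, others 825 to 851 TPM), for Sel1l (74.9 TPM, others 85.3 to 88.7 TPM) and for Uggt1 (57.2 TPM, others 62.3 to 63.9 TPM).

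In 0.2 mM vehicle, replicate 5 was lowest for Herpud1 (108 TPM, others 140.3 to 145 TPM), the only 1 of the 10 transcripts among the 9. It was also lowest for Atf6b (44.2 TPM, others 52.7 to 56.0 TPM) and Trib3 (239 TPM, others 320.5 to 342 TPM), and the second gene ID named Ddit3 was listed at 0 there (others 3987 to 4839 TPM).

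In 4 mM vehicle, replicate 5 was highest for Edem2 (29.4 TPM, others 22.8 to 24.4 TPM) and lowest for Hsp90ab1, a cytosolic HSP90 (2849 TPM, others 3005 to 3050.2 TPM). This library is 1 of the 3 that stood apart.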

How the results depend on the processing

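The count of called transcripts among the 10 stayed within 1.5 times of its value under every alternative run, and leaving out 1 library gave 2 to 4 for EIPA, 8 for glutamine, 0 for IL-1a and 3 to 4 for the difference of responses. For IL-1a, a fit of the 2 compared groups alone called 19 genes of the table, against 35. Of the recomputed changes of the 10 transcripts, 1220 kept their direction and call, 16 lost the call, 4 gained it and 30 changed sign. Changes of sign were confined to transcripts not called. Without EIPA replicates 4 and 5 they were Hsp90b1 (0.021) and Calr (0.034) for EIPA, and Hsp90b1 (0.066) and Calr (0.12) for the difference of responses. For glutamine they were Hspa5 by median-of-ratios scaling (-0.072) and relative to the median gene (-0.060), and Sdf2l1 by median-of-ratios scaling (-0.080), quantile normalisation (-0.066) and relative to the median gene (-0.072). For IL-1a they were Pdia4 by quantile normalisation (0.0073) and Xbp1 by median-of-ratios scaling (-0.0055) and relative to the median gene (-0.00023). Without the 3 libraries that stood apart they were Xbp1 (-0.10), Sdf2l1 (-0.048) and Edem1 (-0.015) for IL-1a and Hsp90b1 (0.015) for the difference of responses. Leaving out 1 library at a time, the IL-1a changes ranged from -0.079 to 0.030 for Hsp90b1, -0.038 to 0.041 for Pdia4, -0.032 to 0.11 for Sdf2l1, -0.053 to 0.091 for Xbp1 and -0.018 to 0.10 for Edem1, and the difference of responses for Hsp90b1 from -0.13 to 0.0047. The causes were not tested.

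Replicate numbers were not taken as pairs, because the labels give them no meaning. Of 30 same-numbered pairs, 17 had a correlation over 0.1 (median 0.117, range -0.281 to 0.601). As a hint that the numbers may matter, differently numbered pairs had a median of -0.028. Among the 5 libraries of another group, a library correlated best with its own number in 17 of 30 cases. By chance 1 case in 5 would do so. The 9 values far from the rest by Dixon's criterion also all lie in libraries numbered 5. With a replicate block, 3 of the 10 transcripts were called for EIPA, 8 for glutamine, 0 for IL-1a and 4 for the difference, as without it. Over all tested genes the block called more, with 6305 for EIPA, against 5986, and 4000 for the difference, against 3569. Depth is unknown, so genes of a few TPM may rest on few reads.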

Other observations

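The cytosolic and mitochondrial chaperones, which fold proteins outside the ER, were measured as a list of 13 genes. With EIPA 11 of them rose and 2 fell (median 0.31, against 0.02 for all tested genes), where 27.4% of all tested genes were called higher and 21.1% lower. By median-of-ratios scaling or relative to the median gene 9 rose and 2 fell. Over all tested genes, 2912 were higher and 2970 lower by that scaling, and 3042 and 2881 relative to the median gene. Without 0.2 mM vehicle replicate 5, 8 of the 13 rose and 2 fell, and without EIPA replicates 4 and 5, 10 rose and 1 fell. The constitutive cytosolic HSP70 Hspa8 averaged 2247 ± 141 TPM with EIPA and 1518 ± 123 TPM in 0.2 mM vehicle (0.57 ± 0.07, limma adjusted p = 8.7e-07). Hsp90ab1 averaged 2464 ± 79.4 TPM with EIPA and 1871 ± 206 TPM in vehicle (0.40 ± 0.06, limma adjusted p = 1.8e-05). Hspd1, the mitochondrial HSP60, was called higher (0.19 ± 0.08, limma adjusted p = 0.043) but not by median-of-ratios scaling (limma adjusted p = 0.14). Hspa9, the mitochondrial HSP70, fell (-0.10 ± 0.04, limma adjusted p = 0.043).

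At 0.2 mM against 4 mM glutamine, 4 of the 13 rose and 3 fell (median 0.10), against 45.4% higher and 27.9% lower over all tested genes. Relative to the median gene 4 were higher and 6 lower, against 35.3% and 35.8% of all tested genes, and without the 3 libraries that stood apart, without EIPA replicates 4 and 5 or with the mitochondrially encoded genes left out 4 were higher and 5 lower. Hspa8 (-0.75 ± 0.07) and Hsp90ab1 (-0.68 ± 0.06) fell, and Hspa9 rose (0.55 ± 0.04, limma adjusted p = 2.2e-10). Hspd1 stood at -0.07 ± 0.08, not called, and was called lower relative to the median gene (limma adjusted p = 0.024).

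An ERSE match was held by 37 genes among the RefSeq promoters, and 16 of them were tested. For this set, made after the data were seen, 4 genes rose, 4 fell and 8 were not called with EIPA (median -0.04), where 48.5% of all tested genes were called. At 0.2 mM against 4 mM glutamine 5 rose, 6 fell and 5 were not called (median -0.01, against 0.14 for all tested genes), where 73.3% of all tested genes were called. Both shares are near the background.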
